A study of Homo sapiens with 6 samples.

Results

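The tubulin isotypes described here are 10 human genes, 4 for alpha tubulin (TUBA1A, TUBA1B, TUBA1C and TUBA4A) and 6 for beta tubulin (TUBB, TUBB2A, TUBB2B, TUBB3, TUBB4B and TUBB6). They were taken by symbol from a table of 37202 genes, and each had 1 row. RNA was measured by paired-end sequencing of strand-specific libraries from HK2 cells, an immortalized human kidney proximal tubule line with a genotype labelled normal. The NR3C2-OE group held 3 libraries from cells given a plasmid for NR3C2, the mineralocorticoid receptor, by lipid transfection, and the Control group held 3 libraries. What the Control cells were given, the time after transfection, the presence of a receptor ligand and the use of separate cultures are not stated in the labels. So a p-value here sets a difference against the scatter among libraries, and that scatter may be technical. The study asks which genes are targets of NR3C2 in these cells.

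Alpha and beta tubulin form a dimer that is the building block of microtubules, the filaments that carry cargo, separate chromosomes and form the core of cilia. The isotypes of each family are nearly alike over most of their length and differ mainly in a short acidic C-terminal tail, which points outward from the microtubule and receives most of its modifications. Tubulin mRNAs are also regulated by their own product: when free dimers are in excess, the factor TTC5 binds the first residues of the nascent chain on the ribosome, and SCAPER and the CCR4-NOT complex then bring about decay of the mRNA. The alpha tubulins TUBA1A, TUBA1B and TUBA1C lie together on chromosome 12, and TUBB2A and TUBB2B lie together on chromosome 6.

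The last 60 coding bases of 5 beta isotypes are shown because they encode the tails and because they show which genes short reads can and cannot tell apart. They are read 5′ to 3′ from the GENCODE 29 transcripts on GRCh38, without the stop codon, and the capitals mark the last sense codon.
TUBB2A, chr6:3153866-3153925, minus strand: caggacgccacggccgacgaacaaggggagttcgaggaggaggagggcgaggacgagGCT
TUBB2B, chr6:3224754-3224813, minus strand: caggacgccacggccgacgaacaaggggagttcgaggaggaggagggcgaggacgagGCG
TUBB3, chr16:89935742-89935801, plus strand: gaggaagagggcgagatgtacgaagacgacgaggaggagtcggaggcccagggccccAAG
TUBB4B, chr9:137243494-137243553, plus strand: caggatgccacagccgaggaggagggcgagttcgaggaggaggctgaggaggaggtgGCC
TUBB6, chr18:12326068-12326127, plus strand: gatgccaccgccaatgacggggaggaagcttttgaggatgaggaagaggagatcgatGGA

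Most alpha tubulins are made with a terminal tyrosine, which the vasohibin and SVBP enzymes remove and tubulin tyrosine ligase (TTL) restores, and TUBA4A is made without one. TUBB2A and TUBB2B differ over these bases in the last codon alone, GCT against GCG, both for alanine. Their whole coding sequences were 98.2% identical, and those of TUBA1A and TUBA1B 97.19% identical. The last 60 coding bases of TUBA1A and TUBA1B, which are not shown, were 100% identical, and those of TUBA1C were 63.64% identical to either. TUBA4A was the alpha gene set apart, at 84.41% to 85.66% identity to the other 3. Among the other beta pairs the coding identity ran from 80.94% to 87.78%, and the tails of TUBB3 and TUBB6 were 44.44% identical.

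The first 12 coding bases, which encode the residues read in the autoregulatory decay, were ATGCGTGAGTGC in TUBA1A, TUBA1B and TUBA1C and ATGCGTGAATGC in TUBA4A. They were ATGAGGGAAATC in TUBB and TUBB4B, ATGAGGGAGATC in TUBB3 and TUBB6, ATGCGCGAGATC in TUBB2A and ATGCGTGAGATC in TUBB2B. Each alpha sequence encodes methionine, arginine, glutamate and cysteine, and each beta sequence ends instead in isoleucine.

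How far reads of these genes can be assigned was measured by sliding a window along the GENCODE 29 transcript of each isotype and asking whether it also occurs in a transcript of another gene of the table. TUBA1B shared 62.7% of its 50-base windows and TUBA1A 41.1%, mostly with each other and with TUBA1C, which shared 25.1%. TUBB2A shared 65.5% and TUBB2B 52.2%, and at 150 bases they still shared 49.4% and 39.4%. TUBB6 shared 0.993% of its 50-base windows, TUBA4A 5.25% and TUBB4B 9.89%, so their counts are among those least exposed to a split of reads among copies. TUBB3 shared 8.84% with genes of the table. TUBB shared 422 of its 2621 windows of 50 bases with the processed pseudogene TUBBP1. The labels do not give the read length or how shared reads were counted, and the values of TUBA1A, TUBA1B, TUBA1C, TUBB2A, TUBB2B and TUBB are uncertain to the extent of this sharing. The gene antisense to TUBA1B cannot be told apart from it if strand was not used in counting, which is not stated either.

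**Figure D1:**
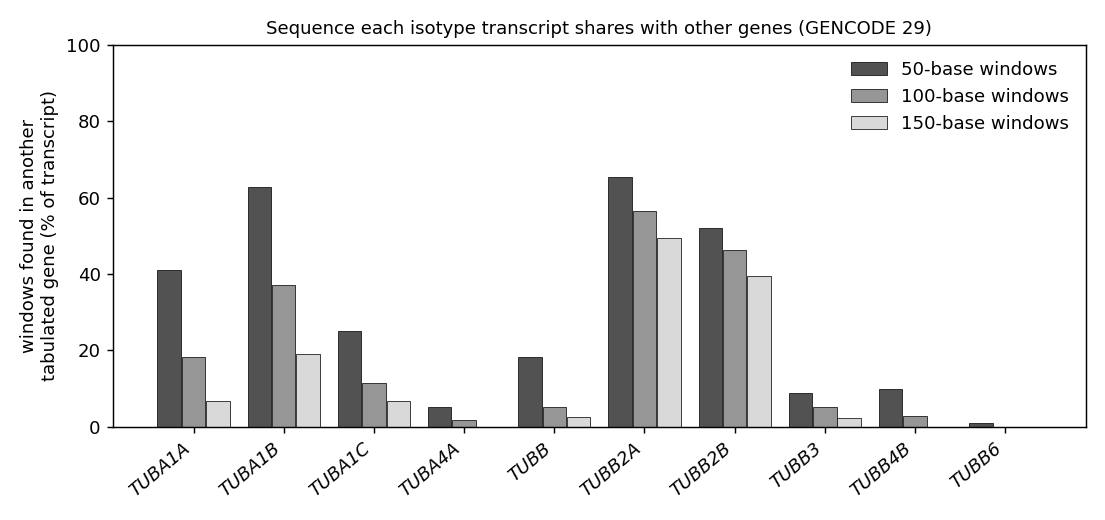
The bars give the percent of 50-, 100- and 150-base windows of each isotype's GENCODE 29 transcript that also occur in another gene of the table. TUBA1B, TUBA1A and the TUBB2A and TUBB2B pair stand highest at 50 bases, and the pair alone stays above 39% at 150 bases.

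Library totals were 77737375 to 90395149 estimated counts in NR3C2-OE and 91956680 to 132533971 in Control, and the isotypes had between 2128 and 312848 counts per library. Levels are given as FPKM, fragments per kilobase of transcript scaled to library size, and differences as log2 fold changes of NR3C2-OE over Control from edgeR on the estimated counts, with the Benjamini-Hochberg adjusted p over 21509 tested genes and a threshold of 0.05. NR3C2, the gene on the plasmid (ENSG00000151623), was at 12.1, 6.95 and 7.41 FPKM in NR3C2-OE and at 5.97, 6.26 and 5.16 FPKM in Control (log2 fold change 0.67, SE 0.23, edgeR adjusted p = 0.486), and without NR3C2-OE 1 its log2 fold change was 0.36. Of 13 proximal tubule markers, LRP2 and ANPEP had no row and CUBN and AQP1, an endocytic receptor and a water channel of this segment, were below 0.1 FPKM in every library. The markers with a row summed to 491 to 520 FPKM in NR3C2-OE and 446 to 474 FPKM in Control, without overlap. None passed in edgeR, and they did not all go one way. Of the 10 tested, 7 had a log2 fold change above 0 and 3 below 0, against 49.8% of all tested genes below 0. GGT1 and PAX8 were the 2 higher without overlap in FPKM, against 9.38% of all tested genes. AQP1, near the floor and not tested, was lower without overlap. GGT1, a brush border enzyme, was at 56.7, 54.0 and 51.1 FPKM in NR3C2-OE and 16.3, 17.5 and 45.5 FPKM in Control (log2 fold change 1.23, SE 0.60, edgeR adjusted p = 0.603). The kidney epithelial regulator PAX8 was at 145 to 157 FPKM in NR3C2-OE and 123 to 139 FPKM in Control, and the epithelial keratin gene KRT8 at 194 to 205 FPKM in NR3C2-OE and 193 to 205 FPKM in Control. The part of these markers in the isotype values was not tested. The summed markers of neurons, in which TUBB3 and TUBB2B are abundant, were at 3.46 to 4.39 FPKM in NR3C2-OE and 3.34 to 3.78 FPKM in Control, almost all from SNAP25, with RBFOX3, ELAVL3 and DCX below 0.1 FPKM. Endothelial markers summed to 0.0146 to 0.0535 FPKM in NR3C2-OE and 0.0675 to 0.146 FPKM in Control, and fibroblast markers to 8.19 to 8.53 FPKM in NR3C2-OE and 7.75 to 9.99 FPKM in Control. CD68, a lysosomal gene and the one leukocyte marker with a row, was at 23.9 to 30.6 FPKM in NR3C2-OE and 20.8 to 21.0 FPKM in Control (edgeR adjusted p = 0.338).

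TUBA1B was the most abundant isotype, at 1047 to 1278 FPKM over the 6 libraries, followed by TUBB4B at 369.7 to 406 FPKM and TUBA1C at 245 to 297 FPKM. Their ranges did not touch, so this order held in each library. TUBA4A, TUBA1A, TUBB3 and TUBB came next with means of 106, 96.0, 81.9 and 75.0 FPKM, and neighbours in that order overlapped. This order leaves out pseudogenes, and the place of TUBB depends on that. Together with TUBBP1, TUBB had means of 206 FPKM in NR3C2-OE and 203 FPKM in Control. TUBB6 (33.7 to 51.4 FPKM) lay below TUBB in all 6 libraries and above TUBB2B (27.8 to 30.4 FPKM) in all 6. TUBB2A was lowest in 5 of 6 libraries. TUBB3, often used as a neuronal marker, was thus well above TUBB2A and TUBB2B in each library of this epithelial line.

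**Figure D2:**
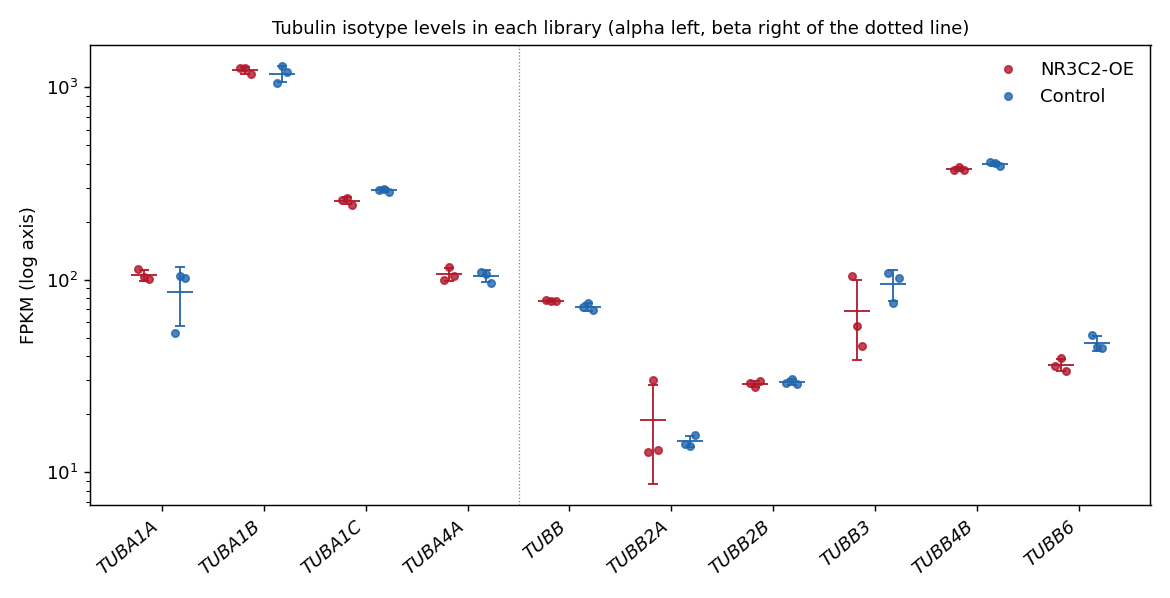
FPKM of each isotype on a log axis, with 1 point per library, a bar at the group mean and whiskers of 1 SD (n = 3 NR3C2-OE and 3 Control libraries). TUBA1B lies at 1047 FPKM or more in every library and TUBB2A is lowest in 5 of 6, while single libraries stand apart in TUBA1A, TUBB2A and TUBB3.

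None of the 10 isotypes passed the edgeR threshold, against 0.0279% of all tested genes (6 of 21509, with 0.0139% higher and 0.0139% lower). At an unadjusted p below 0.05 there were 2, TUBA1C and TUBB4B, both lower in NR3C2-OE, against 9.19% of all tested genes in either direction, 4.43% higher and 4.76% lower. The DESeq2 Wald test called 1, TUBA1C, against 1.99% of the genes it could adjust, and limma-voom and limma-trend called 0. The log2 fold change was below 0 for 8 of the 10 and above 0 for TUBA1A and TUBB2A, against 49.8% of all tested genes below 0. Its median was -0.06 over the isotypes, against 0.00071 over all tested genes.

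On the FPKM scale the groups did not overlap for 4 isotypes, against 16.0% of all tested genes. Of these 4, TUBA1C, TUBB4B and TUBB6 were lower in NR3C2-OE (background 6.65%) and TUBB was higher (background 9.38%). On CPM, TMM-scaled counts relative to the library total, TUBA1C and TUBB4B remained without overlap, and TUBB and TUBB6 overlapped. In whole-culture RNA, fewer cells of a type and less RNA per cell cannot be told apart.

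**Figure D3:**
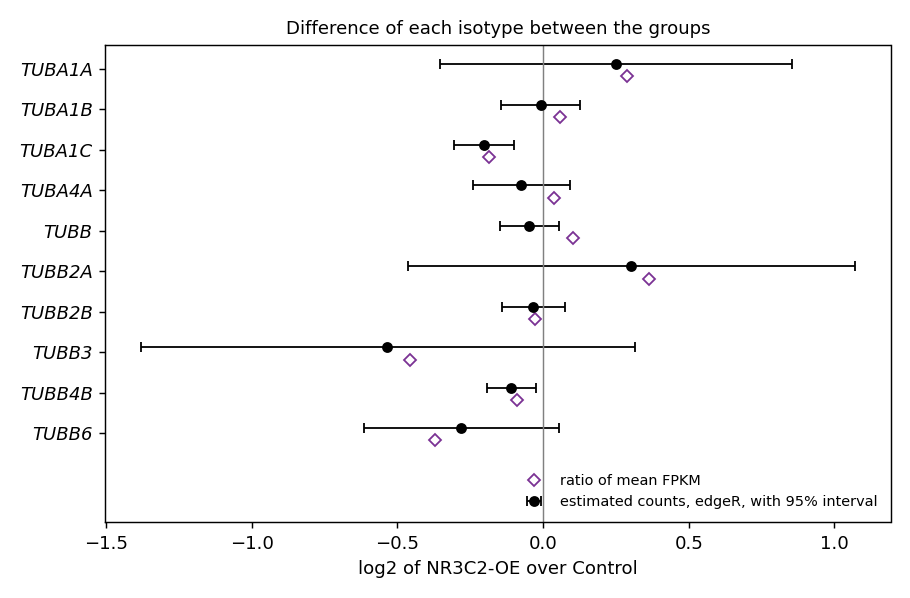
The log2 ratio of NR3C2-OE over Control for each isotype, from the estimated counts in edgeR (filled points with 95% intervals) and from the mean FPKM (open diamonds). The intervals of TUBA1C (-0.31 to -0.10) and TUBB4B (-0.19 to -0.025) are the ones that leave out 0, and none passed after adjustment over all genes.

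Among the alpha tubulins, the largest difference relative to its error was in TUBA1C (ENSG00000167553), one of the ubiquitous alpha tubulins of dividing cells. Its level was 259.7, 265 and 245 FPKM in NR3C2-OE and 293, 297 and 285 FPKM in Control. Each NR3C2-OE library lay below each Control library, with means of 257 ± 10.4 FPKM in NR3C2-OE and 292 ± 6.03 FPKM in Control (SD, n = 3 each), a difference of -12.0%. The edgeR log2 fold change was -0.20 (SE 0.043, 95% interval -0.31 to -0.10, adjusted p = 0.300). The DESeq2 adjusted p was 0.0492, just under the threshold. With any 1 library left out the edgeR log2 fold change stayed between -0.23 and -0.17, with adjusted p from 0.300 to 0.586. Because TUBA1C shares windows with TUBA1A and TUBA1B, the counts of the 3 genes were also summed, and the sum had a log2 fold change of -0.044 (SE 0.055). Most of that sum is TUBA1B, with a mean of 2393 CPM in Control against 979 CPM for TUBA1C. A sum near 0 therefore cannot show whether TUBA1C itself differs.

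TUBA1B (ENSG00000123416), the main alpha tubulin of most cultured cells, was at 1256, 1248 and 1160.4 FPKM in NR3C2-OE and at 1047, 1278 and 1196 FPKM in Control. The groups overlapped, with both the lowest and the highest value in Control. Its log2 fold change was -0.0080 (SE 0.056, edgeR adjusted p = 0.979), with a 95% interval of -0.14 to 0.13.

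TUBA1A (ENSG00000167552), the alpha tubulin best known from developing neurons, was at 113, 103 and 100.3 FPKM in NR3C2-OE and at 52.8, 105 and 102 FPKM in Control. All libraries but one lay close together, and Control 1 stood alone at the low end. From edgeR its log2 fold change was 0.25 (SE 0.25, adjusted p = 0.817), and it was -0.0062 without Control 1. In that library the count of TUBA1A was 10209. On FPKM, TUBA1B was also at its lowest there, at 1047, and TUBA1C at 293 was not. On CPM, TUBA1B was at 2268 in Control 1 and lowest in NR3C2-OE 3, at 2255.

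TUBA4A (ENSG00000127824), the isotype without an encoded tyrosine, was at 99.4, 116 and 105 FPKM in NR3C2-OE and at 110.1, 107 and 95.8 FPKM in Control. The groups overlapped over most of their range. In edgeR the log2 fold change was -0.075 (SE 0.069, adjusted p = 0.799), and the ratio of the FPKM means had the other sign, at a log2 of 0.036.

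The 4 alpha tubulins together amounted to 1728, 1733 and 1611 FPKM in NR3C2-OE and 1503, 1786 and 1679 FPKM in Control. The sums overlapped, with means of 1691 ± 69.4 FPKM in NR3C2-OE and 1656 ± 143 FPKM in Control. On CPM the order of the means was turned, at 3592 ± 157 in NR3C2-OE and 3707 ± 196 in Control (SD, n = 3 each), and the sums again overlapped. The share of TUBA1C in the alpha sum was 15.0%, 15.3% and 15.2% in NR3C2-OE and 19.5%, 16.6% and 17.0% in Control, so all 3 NR3C2-OE libraries lay below all 3 Controls. The share of TUBA1B lay above, at 72.7%, 72.0% and 72.0% in NR3C2-OE and 69.7%, 71.5% and 71.2% in Control. The shares of TUBA1A and TUBA4A overlapped. Shares within a sum are tied to each other, and no test was made of them.

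Among the beta tubulins, TUBB4B (ENSG00000188229), a widely expressed isotype that is also the main beta tubulin of motile cilia, was the most abundant. It was at 369.7, 384 and 371 FPKM in NR3C2-OE and at 406, 403 and 389 FPKM in Control. Each NR3C2-OE library lay below each Control library, with means of 375 ± 7.78 FPKM in NR3C2-OE and 399 ± 9.21 FPKM in Control (SD, n = 3 each), a difference of -6.12%. The edgeR log2 fold change was -0.11 (SE 0.035, 95% interval -0.19 to -0.025, adjusted p = 0.470) and the DESeq2 adjusted p was 0.340. With any 1 library left out it stayed between -0.12 and -0.10.

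TUBB6 (ENSG00000176014), a beta tubulin with a divergent tail that is low in most tissues and is found in muscle and cultured cells, was at 35.6, 39.1 and 33.7 FPKM in NR3C2-OE and at 51.4, 44.5 and 44.2 FPKM in Control. On this scale the groups did not overlap, with means of 36.1 ± 2.70 FPKM in NR3C2-OE and 46.7 ± 4.05 FPKM in Control (SD, n = 3 each), a difference of -22.6%. In CPM they did, at 50.9, 68.8 and 53.7 in NR3C2-OE and 73.6, 76.1 and 61.1 in Control. By edgeR the log2 fold change of TUBB6 was -0.28 (SE 0.14, 95% interval -0.61 to 0.053, adjusted p = 0.613). With 1 library left out it lay between -0.43 and -0.20.

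TUBB (ENSG00000196230), the beta tubulin of most dividing cells, was at 78.7, 77.4 and 77.0 FPKM in NR3C2-OE and at 72.0, 75.7 and 69.3 FPKM in Control. By FPKM every NR3C2-OE library was above every Control library, by 7.49% between the means. By CPM the order of the means was turned, at 233 ± 5.20 in NR3C2-OE and 241 ± 6.83 in Control (SD, n = 3 each), and the groups overlapped. The edgeR log2 fold change was -0.047 (SE 0.042, adjusted p = 0.790), so the direction of TUBB depends on which of the deposited values is used. Its pseudogene TUBBP1 (ENSG00000127589) was listed at 128 to 129 FPKM in NR3C2-OE and 129.7 to 131 FPKM in Control, above TUBB itself in every library. By CPM TUBBP1 was below TUBB in every library, at 203 to 208 in NR3C2-OE and 211 to 212 in Control. On both scales TUBBP1 was lower in NR3C2-OE without overlap, which on FPKM held for 6.65% of all tested genes. Its log2 fold change was -0.044 (SE 0.035, edgeR adjusted p = 0.762). TUBB and TUBBP1 together came to 206 ± 1.34 FPKM in NR3C2-OE and 203 ± 3.60 FPKM in Control, and the groups overlapped.

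TUBB3 (ENSG00000258947), the class III beta tubulin of neurons and many carcinoma lines, varied widely among libraries of both groups. It was at 104, 57.5 and 45.5 FPKM in NR3C2-OE and at 108, 75.2 and 101 FPKM in Control. NR3C2-OE 1 lay among the Controls, and NR3C2-OE 2 and 3 lay below all of them. The edgeR log2 fold change was -0.53 (SE 0.35, 95% interval -1.38 to 0.31, adjusted p = 0.704). It was -1.02 without NR3C2-OE 1 (adjusted p = 0.423) and -0.28 without NR3C2-OE 3. GENCODE also annotates a gene that reads through from the upstream gene into TUBB3. It has no row in the table and was left out of the window comparison, so its reads may be counted under TUBB3 and the TUBB3 values may hold both.

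TUBB2A (ENSG00000137267), an isotype abundant in brain and present at low level elsewhere, was at 12.7, 30.1 and 13.1 FPKM in NR3C2-OE and at 14.1, 13.7 and 15.6 FPKM in Control. NR3C2-OE 2 alone stood high, and the other 5 libraries lay together. By edgeR the log2 fold change of TUBB2A was 0.30 (SE 0.32, adjusted p = 0.829), and without NR3C2-OE 2 it was -0.18. TUBB2B (ENSG00000137285), its near-identical neighbour, was not high in that library, at 28.9, 27.8 and 29.8 FPKM in NR3C2-OE and 29.1, 30.4 and 28.6 FPKM in Control. TUBB2B had an edgeR log2 fold change of -0.033 (SE 0.045, 95% interval -0.14 to 0.075, adjusted p = 0.877), and its groups overlapped. Their counts added together had a log2 fold change of 0.079 (SE 0.12).

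**Figure D4:**
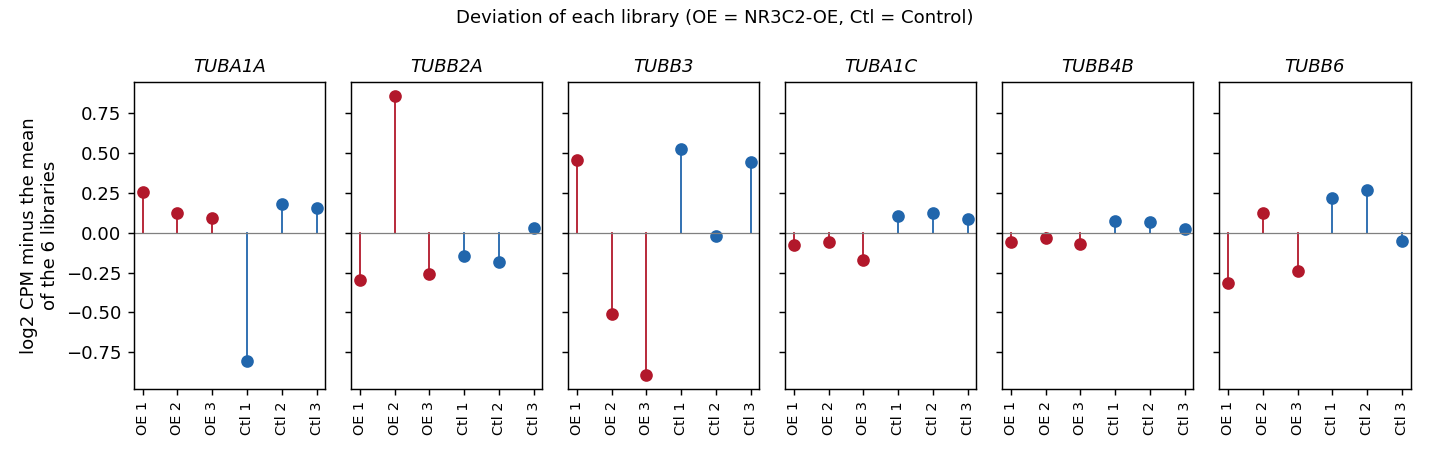
Log2 CPM of each library minus the mean of the 6 libraries, for 6 isotypes, with the NR3C2-OE libraries left and the Control libraries right in each panel. In TUBA1A and TUBB2A a single library departs (Control 1 and NR3C2-OE 2), in TUBB3 both groups spread widely, and in TUBA1C and TUBB4B the NR3C2-OE libraries lie below 0 and the Control libraries above it.

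The 6 beta tubulins together amounted to 630 FPKM in NR3C2-OE 1, 616 in NR3C2-OE 2 and 570 in NR3C2-OE 3, and to 680, 643 and 648 FPKM in Control. The sums did not overlap, with means of 605 ± 31.0 FPKM in NR3C2-OE and 657 ± 20.3 FPKM in Control (SD, n = 3 each) and a ratio of 0.921. The sum of their CPM gave a ratio of 0.901, again without overlap, and no p is given for a sum. The largest parts of the FPKM difference, similar in size, came from TUBB3, which was uneven among libraries, and TUBB4B, whose groups did not overlap. The TUBB3 means were 69.0 FPKM in NR3C2-OE and 94.8 FPKM in Control. The FPKM means in NR3C2-OE were also lower for TUBB4B (375 against 399) and TUBB6 (36.1 against 46.7). They were higher for TUBB (77.7 against 72.3) and TUBB2A (18.6 against 14.5), and TUBB2B was little different (28.8 against 29.4). Within the beta sum, TUBB4B held 58.7% to 65.1% in NR3C2-OE and 59.7% to 62.7% in Control. TUBB6 held 5.65% to 6.34% in NR3C2-OE and 6.83% to 7.55% in Control, without overlap, and TUBB3 held 7.98% to 16.5% in NR3C2-OE and 11.7% to 15.8% in Control. The ratio of the alpha to the beta sum was 2.75, 2.82 and 2.82 in NR3C2-OE and 2.21, 2.78 and 2.59 in Control, and these overlapped. Pseudogenes are left out of these sums, shares and ratios. With pseudogenes the beta sum was 737 ± 31.5 FPKM in NR3C2-OE and 790 ± 21.0 FPKM in Control. Its groups did not overlap, at a ratio of 0.932. All 10 isotypes took 0.462% to 0.500% of the counts in NR3C2-OE and 0.495% to 0.521% in Control.

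Candidates were the 5737 named genes outside the isotypes with a mean FPKM of at least 10 and a CPM above 0 in every library. Those whose CPM followed the summed isotypes most closely were found by root mean square difference of centred log2 CPM over 6 libraries. For the alpha sum, which spanned 0.19 log2 units, they were HNRNPU (0.019), EIF1 (0.019) and NFU1 (0.020). For the beta sum, which spanned 0.30 log2 units, they were RNF26 (0.028), EIF4G1 (0.028) and TULP3 (0.031). These distances describe 6 libraries that share one experiment. They are the smallest among many candidates for sums that varied little, and a shared control of these genes was not tested.

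The promoters of TUBA1C and TUBB4B are shown because these isotypes had the smallest p-values. TUBA1C and TUBB4B were also the only 2 isotypes that held both a CCAAT box and the letters TTTGAA. These motifs were picked with earlier results of these data known, so the match lends no independent weight to a direction. Whether the letters act in these cells was not tested. The box is bound by NF-Y, and TTTGAA has the letters of the cell cycle homology region of promoters of genes used in G2 and mitosis. In both windows below, TTTGAA comes before the first CCAAT. Whether it forms such a region there was not tested. Each window runs from 250 bases before to 50 after a RefSeq start (GRCh38.p14). CCAAT and TTTGAA, or their reverse complements ATTGG and TTCAAA, are in capitals.
TUBA1C, chr12:49264832-49265131, plus strand: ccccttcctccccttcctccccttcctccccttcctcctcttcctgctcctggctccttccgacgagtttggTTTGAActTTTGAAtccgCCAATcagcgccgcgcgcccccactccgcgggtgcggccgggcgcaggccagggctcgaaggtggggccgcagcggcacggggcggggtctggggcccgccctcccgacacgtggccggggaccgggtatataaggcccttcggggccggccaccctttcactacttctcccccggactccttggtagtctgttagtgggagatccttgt
TUBB4B, chr9:137241037-137241336, plus strand: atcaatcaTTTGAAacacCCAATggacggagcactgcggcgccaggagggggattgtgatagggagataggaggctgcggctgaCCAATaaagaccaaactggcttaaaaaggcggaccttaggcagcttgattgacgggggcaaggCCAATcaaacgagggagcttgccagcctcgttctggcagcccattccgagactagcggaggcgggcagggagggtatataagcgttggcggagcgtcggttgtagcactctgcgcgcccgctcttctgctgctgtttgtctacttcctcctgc

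All 10 isotypes matched the RefSeq promoter table, with 15 windows in all. On either strand, CCAAT occurred in at least 1 window of 7 isotypes, against 39.72% of 27305 genes, and TTTGAA in 2, against 18.17%. Both together occurred in 2 isotypes, against 7.26% of genes. GGGCGG, the box bound by SP1, occurred in 8 isotypes, against 48.3% of genes. AGAACA, the half-site of steroid receptors such as NR3C2, occurred in TUBA1C alone (in other windows than the one shown), against 17.54% of genes. The search was for exact letters, each motif was counted on its own whether or not it overlapped another, and a match describes these windows only.

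Short lists of cell cycle genes, picked with earlier results of these data known, are given for context and lend no independent weight to a direction. No gene of either list passed the edgeR adjusted threshold. The 8 listed genes of G2 and mitosis had negative log2 fold changes, 8 of them with an unadjusted p below 0.05 (9.19% of all tested genes) and 7 called by DESeq2 (1.99%). Their median log2 fold change was -0.29, and their summed level was 638 to 707 FPKM in NR3C2-OE and 828 to 858 FPKM in Control. UBE2C, a ubiquitin-conjugating enzyme of mitotic exit, was at 162 ± 8.67 FPKM in NR3C2-OE and 204 ± 8.07 FPKM in Control (SD, n = 3 each, log2 fold change -0.35, edgeR adjusted p = 0.215). The 5 listed G1/S genes had a median log2 fold change of 0.28, with 0 passing in edgeR, 5 at an unadjusted p below 0.05 and 2 in DESeq2, and MCM6 of the replicative helicase was at 66.2 ± 1.21 FPKM in NR3C2-OE and 53.5 ± 0.740 FPKM in Control. Beside these, the differences of TUBA1C (-0.20) and TUBB4B (-0.11) were smaller in size, and the part of the cell cycle genes in them was not tested.

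In the lists of genes that work with tubulin, edgeR likewise called 0 genes at its adjusted threshold. Folding of new tubulin uses prefoldin and the CCT chaperonin. Of its 14 genes 10 had a negative log2 fold change (median -0.064), against 49.8% of all tested genes. The other 4 were above 0, and the values ran from -0.27 to 0.48, the highest in the chaperonin subunit gene CCT8. At an unadjusted p below 0.05 there were 2, both lower, and by DESeq2 there were 0. For these lists too, the share of all tested genes at an unadjusted p below 0.05 was 9.19%, and small counts near it are no result about a list. The chaperonin subunit gene CCT5 was at 127, 126 and 119 FPKM in NR3C2-OE and at 144, 138 and 139 FPKM in Control (log2 fold change -0.20, SE 0.045, edgeR adjusted p = 0.322). CCT3 was at 186 ± 9.16 FPKM in NR3C2-OE and 204 ± 3.26 FPKM in Control (SD, n = 3 each, log2 fold change -0.14, edgeR adjusted p = 0.471). For both, each NR3C2-OE library lay below each Control library. This held for 3 of the 14 genes, against 6.65% of all tested genes, and both were named for their small p.

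The 7 cofactors that assemble the dimer after the chaperonin had a median of 0.015, with 0 at an unadjusted p below 0.05 and 0 in DESeq2. TBCE, which handles alpha tubulin, was uneven, at 5.89, 1.32 and 7.92 FPKM in NR3C2-OE and 8.39, 4.12 and 9.40 FPKM in Control, with library 2 lowest in each group. Of the 3 genes of autoregulated decay, TTC5 was at 3.06, 2.53 and 3.03 FPKM in NR3C2-OE and 2.20, 2.41 and 3.37 FPKM in Control, and the groups overlapped for TTC5, SCAPER and CNOT11. At an unadjusted p below 0.05 there were 0 of these 3, and likewise 0 in DESeq2.

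Of 27 genes of tubulin modification 24 were tested, with a median of -0.049, 1 higher and 1 lower at an unadjusted p below 0.05 and 0 in DESeq2. The higher one was TTLL1, catalytic subunit of a polyglutamylase, at 1.92 ± 0.297 FPKM in NR3C2-OE and 1.33 ± 0.219 FPKM in Control (SD, n = 3 each, log2 fold change 0.51, edgeR adjusted p = 0.485). The lower one was SVBP, the partner of the vasohibins in removing tyrosine, at 13.5 ± 0.983 FPKM in NR3C2-OE and 15.4 ± 0.487 FPKM in Control (log2 fold change -0.22, edgeR adjusted p = 0.498). TTL, which restores the tyrosine, was not among the 3 with the smallest p and was at 11.7, 12.3 and 12.6 FPKM in NR3C2-OE and 12.6, 13.0 and 13.2 FPKM in Control.

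Nucleation genes of the gamma tubulin ring (11 tested) had a median of -0.029, with TUBGCP5 higher and TUBG2 lower at an unadjusted p below 0.05 and 0 in DESeq2. Of 25 tested genes for proteins that bind or regulate microtubules, 17 had a negative value (median -0.034), 1 was higher and 4 were lower at an unadjusted p below 0.05, and DESeq2 called 1. MAP1B, a microtubule-stabilizing protein, was at 12.4, 12.8 and 12.5 FPKM in NR3C2-OE and 15.1, 15.9 and 13.9 FPKM in Control (log2 fold change -0.30, SE 0.052, edgeR adjusted p = 0.252). MAPRE1, which tracks growing plus ends, was at 155, 163 and 164 FPKM in NR3C2-OE and 174, 178 and 173 FPKM in Control (log2 fold change -0.15, edgeR adjusted p = 0.350). Each NR3C2-OE library lay below each Control library for both genes, which were named for their small p. This held for 4 of the 25 genes, against 6.65% of all tested genes. Another 2 were higher without overlap, against 9.38%. STMN1, which binds free dimers and promotes disassembly, was higher in each NR3C2-OE library in FPKM, at 178, 185 and 173 in NR3C2-OE and 165, 147 and 171 in Control, with an edgeR adjusted p of 0.704. Of 10 remaining alpha, beta, delta and epsilon tubulin genes 6 were tested, with a median of -0.078 and none at an unadjusted p below 0.05 or in DESeq2, and the 8 with a row summed to 14.4 to 16.3 FPKM in NR3C2-OE and 14.8 to 15.4 FPKM in Control.

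**Figure D5:**
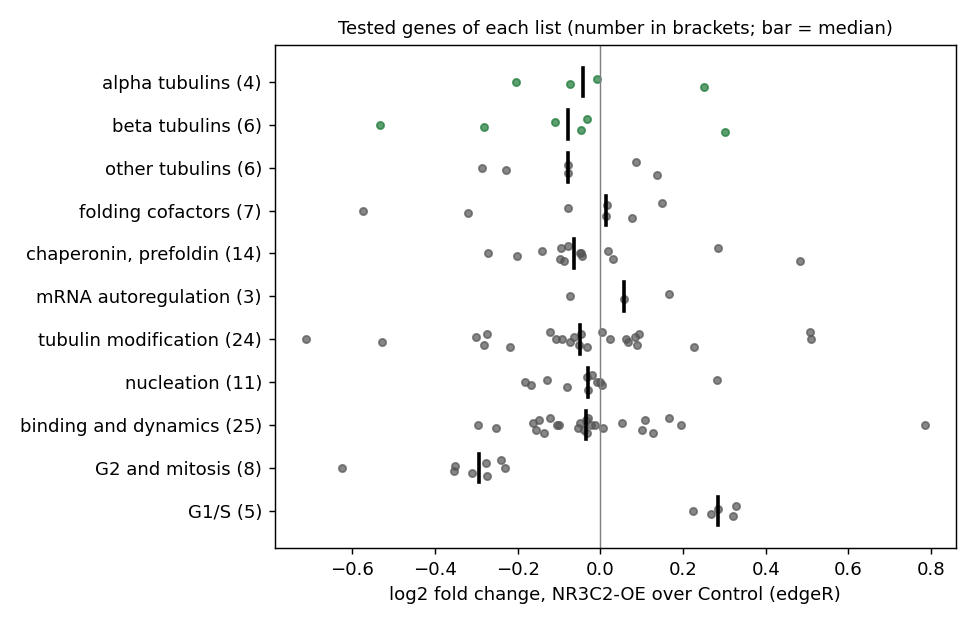
Log2 fold change of NR3C2-OE over Control for each tested gene of the alpha and beta tubulins and of 9 context lists, with the number tested in brackets and a bar at the median. The medians of the tubulin lists and of the tubulin-related lists lie between -0.08 and 0.06, those of the G2 and mitosis list at -0.29 and of the G1/S list at 0.28.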

How the data were processed

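Trimming used cutadapt 1.2.1, according to the submitters' processing notes. For the aligner, counter, build and annotation, nothing is given in the sources at hand. The authors deposited 1 table with 2 values per library. One is FPKM, per the file headers. The other is an estimated count per gene, which the authors deposited as whole numbers without scaling to library size. Of its low values 8694 equal 4, against 5772 equal to 3 and 5504 equal to 5, so it may not be a tally of single reads and may overstate the independent fragments. Depth was 77737375 to 90395149 counts in NR3C2-OE and 91956680 to 132533971 in Control.

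The counts were tested with glmQLFit and glmQLFTest of edgeR 4.0.16 (R 4.3.3) after filterByExpr and TMM, with the group alone in the model. Standard errors came from the F statistics, and tests are two-sided. Alternatives used DESeq2 1.42.0 and limma 3.58.1 (limma-trend on log2 FPKM with a pseudocount of 1 or 0.1). Tested on simulated data for NR3C2-OE against Control (20943 genes), edgeR recovered 49 of 50 genes changed 4-fold, 41 of 50 changed 2-fold, 7 of 50 changed 1.5-fold and 36 of 50 lowered to 0.5 of their level, with 12 false calls.

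The members, the lists and the motifs were chosen with earlier results of these data known. All members were named, with NR3C2 and, of each list, up to 3 genes by the smallest p. TTL, STMN1 and the markers were added by name. Promoters came from RefSeq and coding ends from GENCODE 29, whose genome build need not be that of the authors. Some marker values and coding ends are not reported here.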

Additional observations from a re-analysis of the deposited data

How the results depend on the processing

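No isotype was called by edgeR under any left-out library, filter, scaling or count divisor, and DESeq2 called 1 (TUBA1C). Over all genes, edgeR called 6. Leaving out 1 library gave 5 to 18 (14 without NR3C2-OE 1, 18 without NR3C2-OE 2, 16 without NR3C2-OE 3 and 13 without Control 2), DESeq2 gave 328 and limma-trend on log2(FPKM + 0.1) gave 11. The labels do not say whether the replicate numbers pair the libraries. Correlations of same-numbered deviations were near 0 (0.017, 0.005 and -0.019), which does not settle it. The replicate block gave 0 calls over all genes. The sign turned for TUBA1A without Control 1 (-0.0062) and in the summed counts of TUBA1A, TUBA1B and TUBA1C (-0.044), for TUBB2A without NR3C2-OE 2 (-0.18), and for TUBB2B in the TUBB2A and TUBB2B sum (0.079). It turned for TUBA1B without NR3C2-OE 3 (0.029), without Control 2 (0.034) and on FPKM (0.062 with either pseudocount). On FPKM it turned for TUBA4A (0.035 with a pseudocount of 1 and 0.036 with 0.1) and TUBB (0.10 and 0.11). The cause was not tested. TUBA1C, TUBB3, TUBB4B and TUBB6 kept their sign in all alternatives run. With 1 library left out, the log2 fold change ranged from -0.0062 to 0.41 for TUBA1A, -0.046 to 0.034 for TUBA1B and -0.18 to 0.50 for TUBB2A. The log2 ratio of the summed FPKM, with 1 library left out, was -0.035 to 0.088 for alpha (-0.046 on CPM) and -0.15 to -0.078 for beta. The TUBB and TUBBP1 counts summed, an alternative chosen after seeing the data, gave -0.046. The lowest isotype count was 2128. The deposited counts carry the authors' split of reads among near-identical genes.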
